A study of Mus musculus with 6 samples.

Results

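Interferon-stimulated genes (ISGs) are the genes that cells switch on in response to interferons, and 48 of them were followed here in splenic T follicular helper (Tfh) cells, the CD4+ T cells that help B cells in germinal centers. The 48 were chosen by name, as well-known ISGs, and not by a threshold on the measured values, but earlier results of these data were known. All 48 were among the 53379 gene identifiers of the series, and all 48 passed the expression filter that left 14555 genes to be tested. Tfh cells were sorted from 3 control (CTL) and 3 Prdm1-CKO female mice, and each mouse gave 1 RNA-seq library. Prdm1-CKO mice carried Prdm1 fl/fl with CD11c-CRE, a Cre driven by the CD11c promoter that removes Prdm1, the gene for BLIMP-1, from dendritic cells (DCs) and not from Tfh cells. The CTL group was drawn from Prdm1 fl/fl mice without CD11c-CRE and Prdm1 +/+ mice with it, and which CTL mouse had which genotype is not in the labels. The sample titles call the second group a knockout and the genotype field a knockdown. All 6 mice were 6 to 8 weeks old, had been immunized with NP-CGG in complete Freund's adjuvant, and were taken on day 7. Live TCRβ+CD4+CXCR5+PD1+ cells were sorted, a gate that does not remove FOXP3+ follicular regulatory cells.

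Type I interferons (IFN-α and IFN-β) signal through IFNAR1 and IFNAR2 and the kinases JAK1 and TYK2 to a complex that includes STAT2 and IRF9 and binds the interferon-stimulated response element (ISRE) in ISG promoters. Interferon gamma, a product of T and NK cells, signals through IFNGR1 and IFNGR2 to factors that bind GAS elements. The ISGs include antiviral proteins, sensors of foreign nucleic acid, the ubiquitin-like ISG15 and its protease, interferon regulatory factors (IRFs), GTPases and the antigen processing machinery, and type I interferon is also known to act on T cells during priming. BLIMP-1 has a DNA-binding preference that overlaps that of IRFs.

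The promoters of 4 members are shown first, because Isg15 and Ifit1 are classical targets and Bst2 and Oasl1 were the members whose groups did not overlap in the comparison of CTL and Prdm1-CKO mice. RefSeq promoters on GRCm38.p6, from 250 bases before to 50 after the gene start, were matched for 36 of the 48 members. Each is written 5′ to 3′ on the gene's strand, and capitals mark the ISRE core, a pair of GAAA boxes with 2 bases of any kind between them, searched on both strands, so that a pair of TTTC boxes is the same core on the other strand.
Isg15 promoter (chr4:156200769-156201068, minus strand): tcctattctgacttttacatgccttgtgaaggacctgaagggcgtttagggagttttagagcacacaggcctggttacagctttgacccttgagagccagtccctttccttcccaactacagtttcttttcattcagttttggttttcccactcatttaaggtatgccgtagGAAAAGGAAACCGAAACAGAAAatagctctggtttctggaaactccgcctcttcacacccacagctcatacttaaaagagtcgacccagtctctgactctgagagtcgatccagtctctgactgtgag
Ifit1 promoter (chr19:34640639-34640938, plus strand): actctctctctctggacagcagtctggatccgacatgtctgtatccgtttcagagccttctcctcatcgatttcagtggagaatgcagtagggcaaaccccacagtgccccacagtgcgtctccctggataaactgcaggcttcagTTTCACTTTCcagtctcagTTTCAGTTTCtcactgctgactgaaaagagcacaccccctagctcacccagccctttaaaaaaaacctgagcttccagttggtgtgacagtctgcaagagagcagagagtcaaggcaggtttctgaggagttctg
Bst2 promoter (chr8:71537423-71537722, minus strand): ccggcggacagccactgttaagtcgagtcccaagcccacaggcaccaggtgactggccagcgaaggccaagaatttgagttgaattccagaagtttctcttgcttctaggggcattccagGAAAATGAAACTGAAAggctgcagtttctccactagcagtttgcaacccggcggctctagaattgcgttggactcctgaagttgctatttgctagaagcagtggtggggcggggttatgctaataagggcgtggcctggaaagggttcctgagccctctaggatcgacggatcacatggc
Oasl1 promoter (chr5:114922990-114923289, plus strand): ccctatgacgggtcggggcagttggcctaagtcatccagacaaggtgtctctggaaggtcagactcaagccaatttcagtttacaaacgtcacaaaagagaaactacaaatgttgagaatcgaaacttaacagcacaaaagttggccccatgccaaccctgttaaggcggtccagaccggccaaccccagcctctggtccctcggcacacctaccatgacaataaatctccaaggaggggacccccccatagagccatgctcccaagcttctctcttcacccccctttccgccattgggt
In Isg15 3 overlapping cores formed 1 run, in Ifit1 2 separate cores lay on the other strand, in Bst2 2 cores overlapped, and in Oasl1 these letters were not in the window.

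The ISRE core was found in a promoter of 18 of the 36 matched members (50.0%), beside 3.99% of the 27025 genes in the table. The longer form of 3 GAAA boxes, each 2 bases apart, which contains the core by overlap, was found for 5 members (13.9%), Gbp3, Isg15, Oas1a, Bst2 and Irgm1, and for 0.133% of all genes. The GAS pattern, TTC and GAA with 3 bases of any kind between them, was found for 11 members (30.6%) and for 9.55% of all genes. Short stretches with the core in capitals, read on the strand of the core, show the shared letters around it.
Gbp3: ggatctggGAAATAGAAActgaaact
Irgm1: aagaaataGAAACCGAAActgattct
Oas1a: gggaaatgGAAACTGAAAatctactt
Rsad2: tgttttctGAAAATGAAAgttggacc
Eif2ak2: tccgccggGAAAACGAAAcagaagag
A match is a description of the letters and does not show binding.

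Total counts lay between 7147601 and 16973392 per mouse, so that 3 counts, taken as the floor of a library, stood for 0.169 to 0.444 CPM (counts scaled to library size with TMM factors). In a principal component analysis of all genes, CTL replicate 2 lay at 134.6 on the first component (56.4% of the variance) and the other mice between -29.1 and -24.0, and a named log2 fold change that moved by over 1.5 times without it is also given without it. The 12 Tfh markers were all detected and summed to 3350, 3610 and 4230 CPM in CTL mice and to 3460, 3270 and 3460 CPM in Prdm1-CKO mice. The libraries also held RNA of other cells. The 10 macrophage markers were all detected and summed to 540 to 1550 CPM in CTL mice and 1130 to 1560 CPM in Prdm1-CKO mice, and Lyz2, a myeloid lysozyme, lay between 1760 and 3480 CPM. Prdm1 itself, which is no check of a deletion made in DCs, was at 28.9, 30.0 and 27.5 CPM in CTL Tfh and at 30.2, 30.8 and 30.9 CPM in Prdm1-CKO Tfh, a log2 fold change of 0.09 (standard error [SE] 0.19).

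ISG transcripts took between 0.541% and 0.68% of the counts of each library. Levels of different genes were compared per length, as CPM per kilobase of exon (written FPKM), averaged over the 6 mice. By this scale 10 members lay above 50 FPKM, 26 between 10 and 50, and 12 below 10, with a median of 20.7 FPKM. The highest member was Ly6e, a membrane protein that restricts entry of some viruses, at 229.8 FPKM. It was followed by Psmb8, a catalytic subunit of the immunoproteasome, at 172.8 FPKM, and by Tap1, the peptide transporter of MHC class I loading, at 92.1 FPKM. The lowest were Mx2 at 3.68, Oasl1 at 3.40 and Ifi44 at 0.604 FPKM. Mx2 is typed as a polymorphic pseudogene in the annotation used. Gbp7, a guanylate-binding GTPase, stood 24th of the 48, next to the median, at 21.2 FPKM.

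In the order of levels, most steps between neighbours did not exceed the spread between mice. Of the 47 steps from a member to the next lower one, 4 were larger than the greater SD of the pair over the mice, on the log2 FPKM scale. These were the steps from Ly6e to Psmb8 (0.41 against an SD of 0.21), from Psmb8 to Tap1 (0.91 against 0.21), from Ifi35 to Gbp2 (0.30 against 0.10) and from Oasl1 to Ifi44 (2.49 against 1.83). The genes of a step were not compared within each mouse, so a smaller step can still hold in every mouse. Isg15 stood at 15.8, Usp18 at 15.7, Ifit1 at 14.2 and Rsad2 at 5.07 FPKM, all under the members' median of 20.7. These genes were picked after their values were seen. Other members, such as Ifi27 (88.1), Bst2 (55.9) and Irf7 (37.1 FPKM), stood above the median. For genes with a near-identical copy these levels are uncertain, because a 25-base read from a shared stretch matches more than 1 gene. Reads came in pairs, and whether the mate placed such a read was not examined. Of the 25-base windows of its exons, Oas1a shared 72.5% with other genes, Phf11b 67.6% and Ifit3 66.1%.

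**Figure D1:**
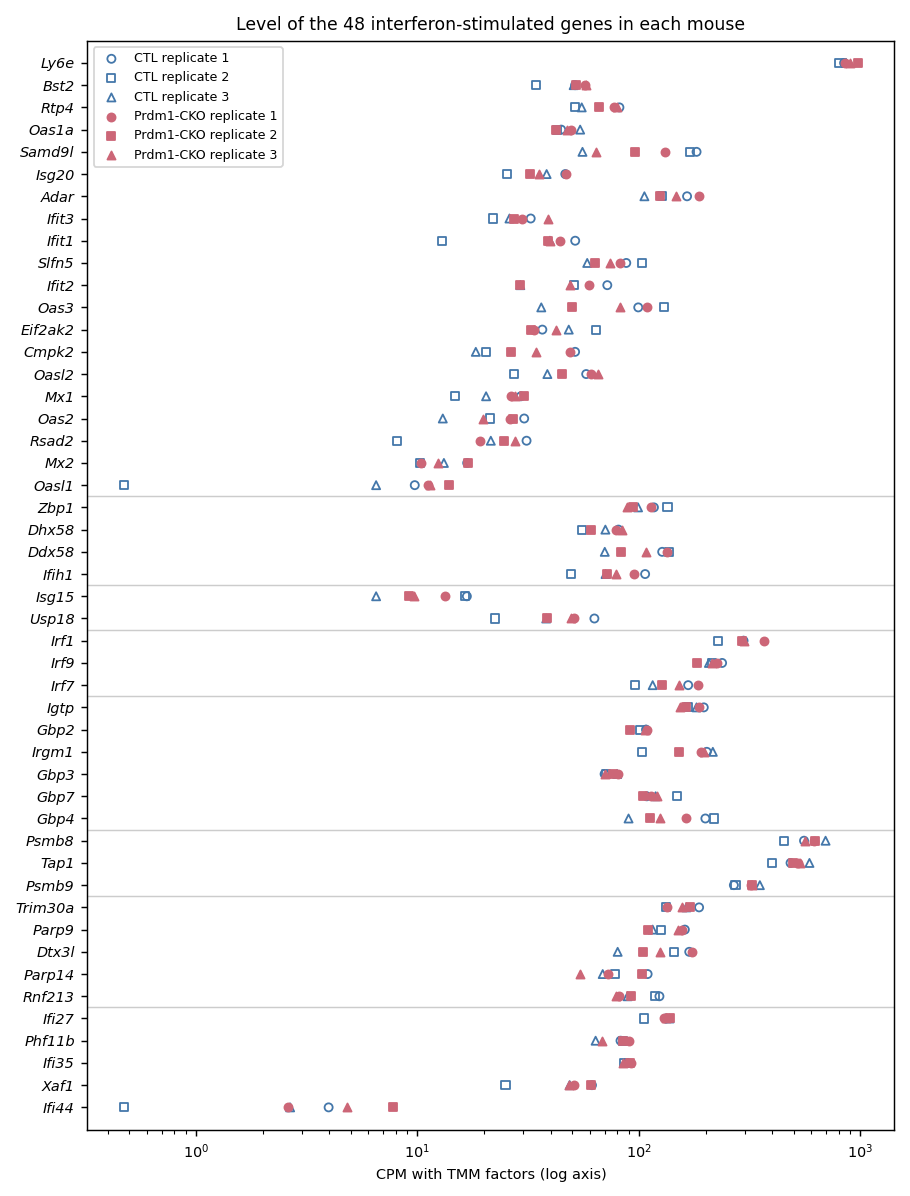
CPM with TMM factors (log axis) of each of the 48 ISGs in the 6 mice, grouped by role from antiviral effectors at the top to other induced genes at the bottom, and by mean FPKM within a role. Open symbols are CTL and filled symbols Prdm1-CKO mice. Oasl1 and Ifi44 have CTL replicate 2 far to the left, at 0.474 CPM.

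The comparison of Prdm1-CKO with CTL mice sets Tfh cells that arose beside BLIMP-1-deficient DCs against control Tfh cells. Values are CPM in CTL replicates 1, 2 and 3 and then in Prdm1-CKO replicates 1, 2 and 3, differences are log2 fold changes of Prdm1-CKO over CTL with their SE, and p is from the quasi-likelihood test of edgeR, two-sided. Of the 48 members, 0 rose and 0 fell in Prdm1-CKO mice by an adjusted p under 0.05 (0.00% of all genes tested in each direction), and the smallest adjusted p of a member in edgeR was 0.996. At an unadjusted p under 0.05, 0 members were higher and 0 lower, beside 0.928% and 1.42% of all genes, and DESeq2 also called 0 members at either threshold. Its shares over all genes were 0.0269% higher and 0.00768% lower by adjusted p and 1.01% and 1.6% by unadjusted p. The members' intervals reached 0.56 on either side of the log2 fold change at the median, with a range from 0.27 to 1.79, and for 12 members the 95% interval held a change of over 2-fold. For the other 36 it did not.

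A log2 fold change above 0 was found in 30 of 48 members (62.5%), beside 51.1% of all genes tested. The median was 0.06, against 0.01 over all genes. Without CTL replicate 2 the count was 20 of 48 (41.7% against 48.6% of all genes) and the median -0.03, so that the lean toward Prdm1-CKO was not seen without that mouse. All 3 Prdm1-CKO mice were above all 3 CTL mice in 2 members (4.56% of all genes did so) and below in 0 members (3.86% of all genes). The members concerned, Oasl1 and Bst2, are 4.17% of the members, a share near the background.

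**Figure D2:**
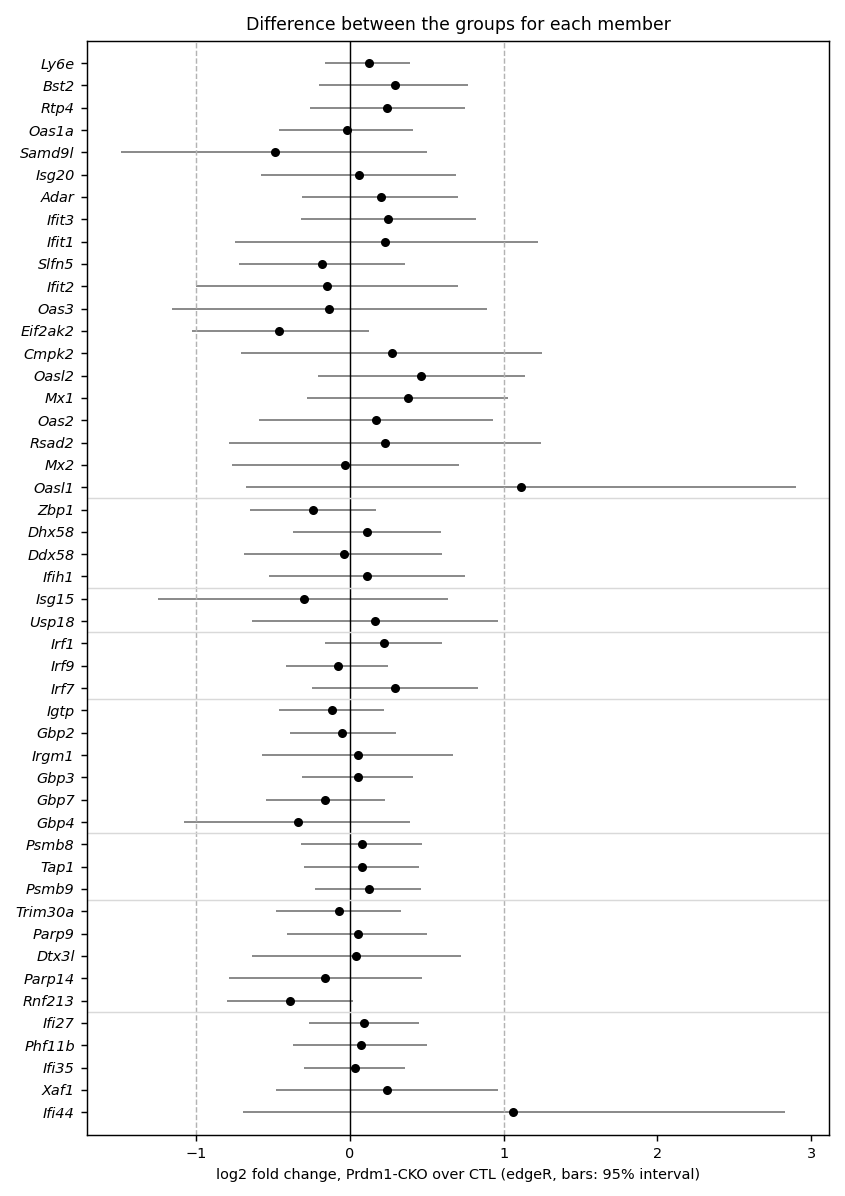
Log2 fold change of Prdm1-CKO over CTL for each member, with its 95% interval from edgeR as a bar, in the order of the plot of levels. The dashed lines mark a 2-fold change in either direction, and every interval includes 0, from Rnf213 (-0.80 to 0.02) to Oasl1 (-0.68 to 2.90).

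The 20 genes grouped as antiviral effectors include blockers of viral entry, translation or replication. Of the 20, 13 lay above 0 and 7 below, with a median log2 fold change of 0.18. Oasl1 (chromosome 5, 114923240 to 114937915, plus strand) encodes an inactive relative of the 2′-5′ oligoadenylate synthetases that dampens translation of Irf7. It was at 9.73, 0.474 and 6.51 CPM and at 11.2, 13.8 and 11.4 CPM. The groups did not overlap, and CTL replicate 2, with 4 counts, lay far under the other mice. The means were 5.57 ± 4.70 CPM (SD, n = 3) in CTL and 12.2 ± 1.45 CPM (SD, n = 3) in Prdm1-CKO mice. Its log2 fold change of 1.11 (SE 0.78) became 0.56 without CTL replicate 2 and 1.79 without CTL replicate 1. Bst2 (chromosome 8, 71534255 to 71537456, minus strand), or tetherin, holds budding virus particles on the cell. It was at 51.5, 34.2 and 50.8 CPM and at 57.0, 52.0 and 57.5 CPM. The lowest Prdm1-CKO mouse was above the highest CTL mouse by less than 1 CPM, and the log2 fold change was 0.29 (SE 0.21), or 0.11 without CTL replicate 2.

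Ly6e, the most abundant member, was at 844, 798 and 861 CPM and at 849, 973 and 894 CPM. The groups overlapped, and its log2 fold change of 0.12 (SE 0.12) had the 95% interval from -0.16 to 0.39, and it was 0.07 without CTL replicate 2. The remaining genes of this role that are named here were chosen after their values were seen, as classical targets or for their spread. Ifit1, which binds RNA with a foreign cap, was at 51.6, 12.9 and 39.7 CPM and at 44.0, 38.8 and 39.8 CPM. Rsad2, or viperin, which makes a chain-terminating nucleotide, was at 31.1, 8.06 and 21.5 CPM and at 19.2, 24.6 and 27.5 CPM. In both genes CTL replicate 2 was lowest by over 2-fold, the other 5 mice mingled, and the log2 fold change of 0.23 in each (SE 0.43 and 0.44) turned to -0.17 and -0.16 without that mouse.

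Oas3, which makes the 2′-5′ oligoadenylates that activate RNase L, was lowest in another mouse. It was at 99.3, 130 and 36.3 CPM and at 109, 50.0 and 82.5 CPM, with the CTL mice at both ends, and its log2 fold change was -0.14 (SE 0.45), or 0.24 without CTL replicate 2. Samd9l, a restriction factor for poxviruses, was at 182, 171 and 55.6 CPM and at 131, 96.1 and 63.9 CPM. CTL replicate 3 was lowest, and the other CTL mice lay above all 3 Prdm1-CKO mice. The log2 fold change of -0.49 (SE 0.43) became -0.86 without CTL replicate 3 and -0.30 without CTL replicate 2. Eif2ak2, the kinase PKR that stops translation on double-stranded RNA, was at 36.7, 64.2 and 48.2 CPM and at 33.6, 32.7 and 42.1 CPM. Its mean was lower in Prdm1-CKO mice, with an overlap, and the log2 fold change was -0.46 (SE 0.25), or -0.24 without CTL replicate 2. The other 12 antiviral members all overlapped between the groups.

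Of the 4 sensors of nucleic acid in the cytosol, 2 lay above 0 and 2 below, between -0.24 and 0.11. Ifih1, or MDA5, which senses long double-stranded RNA, was at 107, 49.5 and 70.7 CPM and at 95.1, 71.8 and 79.0 CPM. Its log2 fold change was 0.11 (SE 0.28), and it was lowest in CTL replicate 2, without which it was -0.12. The ISG15 system was represented by the modifier and by the protease that removes it. Isg15 was at 16.7, 16.4 and 6.51 CPM and at 13.4, 9.15 and 9.66 CPM, with a log2 fold change of -0.30 (SE 0.41), or -0.13 without CTL replicate 2. Usp18, the protease, which also limits IFNAR signaling, was at 63.0, 22.5 and 38.2 CPM and at 50.9, 38.5 and 49.2 CPM, with a log2 fold change of 0.16 (SE 0.35), or -0.14 without CTL replicate 2. CTL replicate 3 was lowest for the modifier and CTL replicate 2 for its protease, and in both genes the groups overlapped.

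The 3 IRFs among the members were 2 above 0 and 1 below, from -0.08 to 0.29. Irf7, which amplifies type I interferon production, was at 167, 96.0 and 115 CPM and at 184, 127 and 152 CPM. Its highest CTL mouse lay above 2 of the Prdm1-CKO mice, and the log2 fold change was 0.29 (SE 0.24), or 0.12 without CTL replicate 2. Of the 6 interferon-induced GTPases, which attack vacuoles of intracellular pathogens, 2 were above 0 and 4 below, with a median of -0.08. Gbp4 was at 200, 218 and 89.8 CPM and at 163, 113 and 124 CPM, with CTL mice again at both ends and a log2 fold change of -0.34 (SE 0.32), or -0.12 without CTL replicate 2. Gbp7, the member at the median level, was at 109, 149 and 119 CPM and at 113, 104 and 121 CPM, and its log2 fold change was -0.16 (SE 0.17), or -0.03 without CTL replicate 2. Gbp4 shares 19.4% of its 25-base windows with other genes, chiefly Gbp6, so that its level is uncertain.

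The 3 antigen processing genes lie side by side on chromosome 17 and differed little. Psmb8 was at 557, 454 and 696 CPM and at 616, 624 and 559 CPM, and Tap1 was at 484, 401 and 589 CPM and at 521, 497 and 534 CPM. The log2 fold change was 0.08 for each (SE 0.17 and 0.16), the Prdm1-CKO mice fell inside the range of the CTL mice, and the intervals were -0.32 to 0.47 and -0.30 to 0.45. Without CTL replicate 2 the values were -0.08 and -0.06. Tap1 and its neighbour Psmb9 overlap on opposite strands over 212 exon bases, and whether the counting used strand is not given in the sources used here.

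The 5 PARP and ubiquitin ligase genes were 2 above 0 and 3 below. Dtx3l, a ubiquitin ligase that pairs with the PARP9 protein, was at 169, 144 and 80.2 CPM and at 174, 104 and 125 CPM, with a log2 fold change of 0.04 (SE 0.30), or 0.10 without CTL replicate 2. Rnf213, a very large ubiquitin ligase that coats intracellular bacteria, had the smallest p of the 48 in edgeR and is named for that. It was at 124, 118 and 88.9 CPM and at 81.6, 92.0 and 78.8 CPM, and the overlap came from CTL replicate 3, which lay below 1 Prdm1-CKO mouse. Its log2 fold change was -0.39 (SE 0.18, adjusted p = 0.996 in edgeR), and it stayed between -0.51 and -0.31 when each mouse was left out in turn. Rnf213 is the longest member, with 16888 exon bases, and under a correction for gene length its log2 fold change was -0.17. Among the 5 other induced genes all lay above 0, from 0.03 to 1.06. The largest was Ifi44, at 3.97, 0.474 and 2.66 CPM and at 2.59, 7.73 and 4.79 CPM, which rested on 4 to 76 counts per mouse and overlapped between the groups (SE 0.77). Without CTL replicate 2 it was 0.57.

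Leaving out other mice changed which members passed an unadjusted p under 0.05 in edgeR. Without CTL replicate 1, Mx1 (0.65), Oasl2 (0.77), Cmpk2 (0.90), Rtp4 (0.47) and Irf7 (0.53) were higher and Eif2ak2 (-0.65) lower, beside 3.94% of all genes higher and 3.24% lower. Without CTL replicate 3, Samd9l (-0.86), Gbp4 (-0.64) and Rnf213 (-0.51) were lower, with 0 higher, beside 3.94% of all genes lower and 2.14% higher. The adjusted p of these members was 0.686 or above in edgeR, and without CTL replicate 2, 0 members passed the unadjusted threshold in either direction (1.43% of all genes higher, 0.879% lower). With voom and sample weights 0 members were higher and 1, Rnf213, was lower, beside 1.84% and 1.39% of all genes.

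Fewer mice also left more genes with groups that did not overlap. Without CTL replicate 1 these were 10 members higher and 1 lower (14.1% and 10.3% of all genes), without CTL replicate 2 they were 2 and 1 (7.69% and 8.23%), and without CTL replicate 3 they were 6 and 6 (13.0% and 12.1%). Without Prdm1-CKO replicate 1 they were 4 and 2 (8.13% and 6.45%), without replicate 2 of that group 3 and 1 (8.95% and 8.9%), and without its replicate 3 again 3 and 1 (7.54% and 6.73%).

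The members were also split by the promoter sequences given above. The 18 members whose promoter held the ISRE core had a median log2 fold change of -0.03, with 8 above 0. The 18 matched members without it had a median of 0.10, with 14 above 0. Log2 CPM of each member was also centred on its mean over all mice, and medians are given in the order of replicate numbers. With the core they were 0.18, -0.07 and 0.04 in CTL mice and 0.11, -0.12 and 0.03 in Prdm1-CKO mice. Without the core they were 0.32, -0.34 and -0.07 in CTL mice and 0.31, -0.06 and 0.05 in Prdm1-CKO mice. The sets lay furthest apart in CTL replicate 2, and the part of that mouse in the split was not tested. No difference between the 2 sets was tested.

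Mice of 1 group differed from each other in ISG levels by more than the groups did. For each member log2 CPM was centred on its mean over the 6 mice. The median over the 48 members was 0.26, -0.16 and -0.07 in the CTL mice and 0.14, -0.09 and 0.04 in the Prdm1-CKO mice, in the order of their replicate numbers. Over all genes tested the same medians stayed between -0.04 and 0.05. CTL replicate 1 held 40 of the 48 members above their own mean, Prdm1-CKO replicate 1 held 39, and CTL replicate 2 held 14. The pooled SD of these member medians within a group was 0.174.

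Most members were highest in the same mouse of each group. CTL replicate 1 was above both other CTL mice in 30 members (62.5%), while this held for 30.7% of all genes, and Prdm1-CKO replicate 1 was above both other Prdm1-CKO mice in 25 members (52.1%), against 31.8% of all genes. These mice also had the largest library of their group. Total counts were 14177558, 8623180 and 7147601 in CTL and 16973392, 9753574 and 14885913 in Prdm1-CKO mice, in the order of their replicate numbers. The part of library size in this pattern was not tested. The labels give replicate numbers but no batch. The lowest value fell to CTL replicate 2 in 23 members (47.9%) and in 34.9% of all genes. The members varied within groups with a median SD of 0.32 on the log2 CPM scale, compared with 0.27 over the 6567 genes in the same range of levels.

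**Figure D3:**
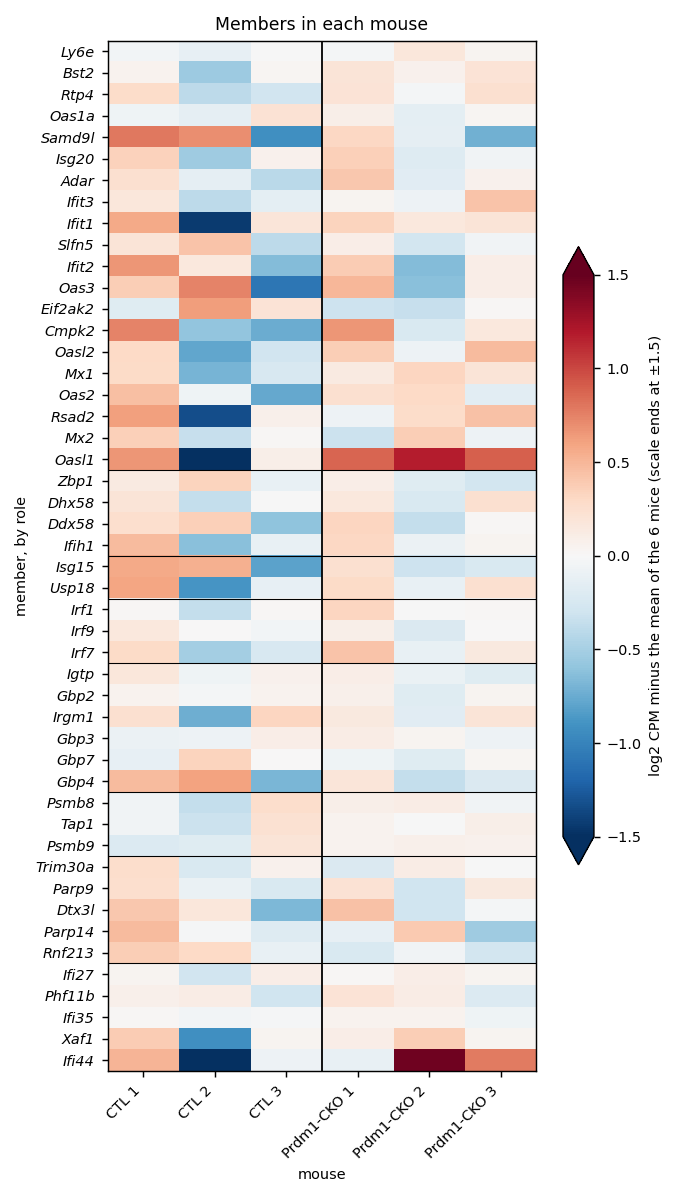
Log2 CPM of each member minus its mean over the 6 mice, by role, with the color scale ending at 1.5 in either direction. CTL replicate 1 and Prdm1-CKO replicate 1 are mostly red (40 and 39 of 48 members above their mean), and CTL replicate 2 is blue for most members (14 of 48 above their mean), with Samd9l, Oas3, Eif2ak2, Gbp4 and Isg15 among the red ones.

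CTL replicate 2 set the widest differences. In 7 members (14.6%) it lay over 2-fold below the median of the other 5 mice, and in 0 members over 2-fold above it. Of all genes tested, 16.7% lay that far below, a share near that of the members, and 9.63% that far above. The 7 were Oasl1, Ifi44, Ifit1, Rsad2, Usp18, Oasl2 and Xaf1, from -4.15 to -1.02 on the log2 scale. At the other end, Samd9l (0.83), Gbp4 (0.81), Eif2ak2 (0.81), Isg15 (0.75) and Oas3 (0.65) lay above the median of the others. ISGs did not move as 1 block in that mouse.

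CTL replicates 1 and 3 lay furthest apart in long members. In the 10 members with over 6000 exon bases the median was 0.37 in CTL replicate 1 and -0.34 in CTL replicate 3. Of these 10, 10 lay above their own mean in CTL replicate 1 and 0 in CTL replicate 3. Over all 3821 genes of that length, 2554 did so in CTL replicate 1 and 1472 in CTL replicate 3. The medians over all these genes were 0.12 and -0.11, and 0.18 in CTL replicate 2. In members of 2000 to 4000 bases CTL replicate 2 was lowest in 11 of 17 (64.7%), with a median of -0.35. Over all genes of that length it was lowest in 41.2%, with a median of -0.12. A correction for gene length left the counts of members past either threshold at 0 and gave a median log2 fold change of 0.04.

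**Figure D4:**
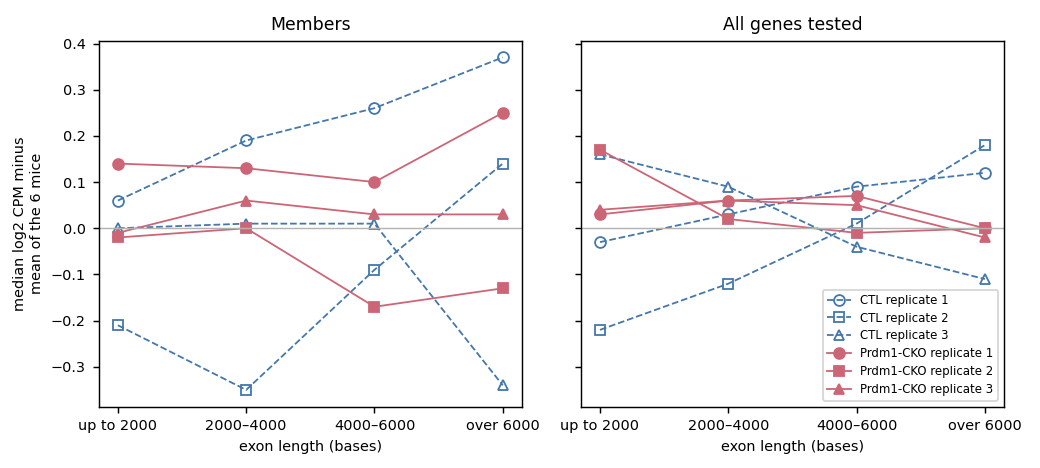
Median log2 CPM minus the mean of the 6 mice (vertical axis) in 4 classes of exon length (horizontal axis), for the 48 members at left and all genes tested at right, with 1 line per mouse. CTL replicate 3 falls to -0.34 in members and to -0.11 in all genes over 6000 bases. In the same classes CTL replicate 1 is at 0.37 and 0.12, and CTL replicate 2 at 0.14 and 0.18.

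Members that lie next to each other in the genome did not always share a pattern. Ifit2, Ifit3 and Ifit1 lie within 100 kb on chromosome 19, yet CTL replicate 2 was at 12.9 CPM for Ifit1, the lowest of 6, and at 50.9 CPM for Ifit2, the third highest. Oas2 and Oas3 are 3245 bases apart on chromosome 5, and both were lowest in CTL replicate 3. Rsad2 and Cmpk2, 12752 bases apart on chromosome 12, were lowest in CTL replicates 2 and 3.

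RNA of other cells moved with the members in part. The summed level of the 48 members was 6548, 5526 and 5854 CPM in CTL mice and 6505, 5878 and 6019 CPM in Prdm1-CKO mice. The 10 macrophage markers summed to 1550, 540 and 848 CPM and to 1380, 1130 and 1560 CPM. Both sums were lowest in CTL replicate 2 and next lowest in CTL replicate 3. In CTL replicate 2, Adgre1, the macrophage marker F4/80, was at 2.84 CPM and in the others at 52.4 to 110 CPM. Csf1r, another macrophage marker, differed less, at 319 CPM there and at 386 to 827 CPM in the others. The 8 monocyte and neutrophil markers summed to 2130 to 3930 CPM in CTL and 3380 to 3900 CPM in Prdm1-CKO mice, again lowest in CTL replicate 2. The part of these cells in the ISG levels was not tested, and in bulk samples fewer cells of a type and less RNA per cell cannot be told apart.

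Plasmacytoid DCs are the main producers of IFN-α. Of their markers Siglech lay between 0 and 0.616 CPM and Klk1 between 0 and 0.296 CPM. Tcf4 (15.7 to 23.2 CPM) and Ccr9 (8.43 to 13.8 CPM) were above the floor in every mouse, and Ly6d (0.711 to 19.2 CPM) and Spib (0 to 21.5 CPM) were lowest in CTL replicate 2. The 8 markers of that list summed to 165 to 277 CPM in CTL and 236 to 307 CPM in Prdm1-CKO mice, but the list includes 2 members, Bst2 and Irf7. B cell markers summed to 104 to 181 CPM in CTL and 156 to 243 CPM in Prdm1-CKO mice, and conventional DC markers to 246 to 414 and 370 to 605 CPM. The groups did not overlap in the sums of plasma cell and regulatory T cell markers. Plasma cell markers summed to 512 to 763 CPM in CTL and 765 to 972 CPM in Prdm1-CKO mice. Regulatory T cell markers summed to 731 to 828 CPM in CTL and 650 to 721 CPM in Prdm1-CKO mice. The part of these cells in the ISG levels was not tested either.

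**Figure D5:**
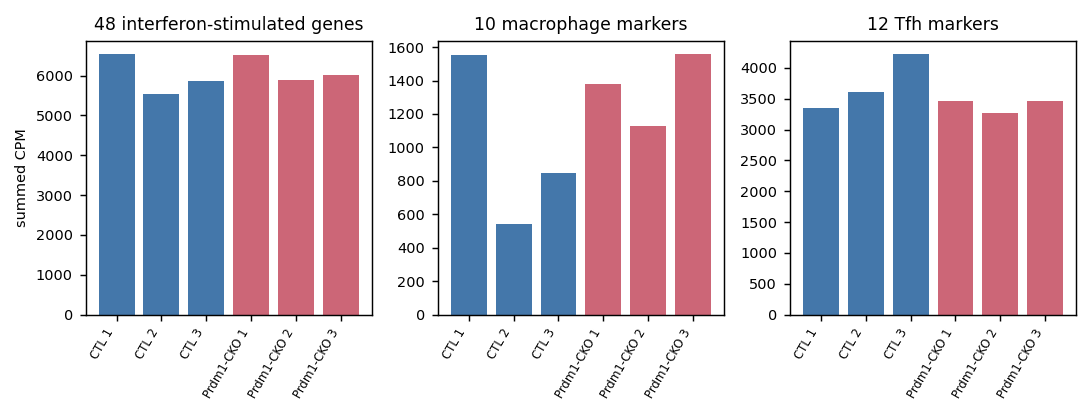
Summed CPM (vertical axes from 0) in each mouse of the 48 ISGs, of 10 macrophage markers and of 12 Tfh markers, with CTL in blue and Prdm1-CKO in red. CTL replicate 2 is lowest for the ISGs (5526 CPM) and for the macrophage markers (540 CPM) but not for the Tfh markers (3610 CPM).

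Few counts fell on the interferon genes, apart from interferon gamma. Of 21 ligand genes, 1 passed the filter. Ifng, also a product of Tfh cells, was at 21.6, 13.9 and 22.1 CPM and at 23.6, 14.2 and 13.6 CPM, with a log2 fold change of -0.16 (SE 0.32), or -0.35 without CTL replicate 2. The 13 Ifna genes were listed at 0 counts in every mouse, and Ifnb1 had 4 counts in Prdm1-CKO replicate 2 and 0 in the others. A count of 0 allows up to 0.169 to 0.444 CPM for reads that could be counted. The Ifna genes are near copies of each other and the treatment of multiply aligned reads is not given in the sources used here, so that a 0 does not show that they were absent.

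The receptors were well expressed. Of 6 receptor genes, 5 were tested, and all 5 had a log2 fold change above 0, from 0.07 to 0.44, with 0 at an unadjusted p under 0.05 in edgeR. Ifngr1, the ligand-binding chain for interferon gamma, had the highest, at 454, 217 and 373 CPM and at 486, 433 and 498 CPM. The groups overlapped, CTL replicate 2 was lowest, and its log2 fold change was 0.44 (SE 0.25), or 0.18 without that mouse. Ifnar1 was at 237, 209 and 158 CPM and at 227, 190 and 221 CPM, with a log2 fold change of 0.07 (SE 0.18). Ifnlr1, the lambda receptor, had at most 4 counts in any mouse and was not tested.

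Of the 11 genes of signal transduction, 5 lay above 0 and 6 below, with a median of -0.10 and 0 at an unadjusted p under 0.05. Stat2, used by type I interferon, was at 96.3, 106 and 44.5 CPM and at 95.3, 56.9 and 78.0 CPM, a log2 fold change of -0.10 (SE 0.33), or 0.12 without CTL replicate 2. Pias1, an inhibitor of cytokine signaling, was the gene of this list whose groups did not overlap. It was at 129, 175 and 128 CPM and at 121, 109 and 124 CPM, lower in Prdm1-CKO mice by a log2 fold change of -0.29 (SE 0.17), or -0.13 without CTL replicate 2, beside 3.86% of all genes with groups apart in that direction.

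Of the 15 genes of upstream sensing, 13 were tested, with 8 above 0, 5 below and 0 at an unadjusted p under 0.05. The widest log2 fold changes were those of Cgas, the sensor of cytosolic DNA, at 1.13 (SE 1.03), and of Tlr8, an endosomal RNA sensor, at 0.76 (SE 0.85). Cgas was at 6.85, 0 and 11.8 CPM and at 11.5, 14.2 and 15.1 CPM. Tlr8 was at 22.9, 0.711 and 7.55 CPM and at 17.6, 14.0 and 21.9 CPM. Without CTL replicate 2 the log2 fold changes were 0.54 and 0.21. In both genes that mouse was lowest, with 0 counts for Cgas and 6 for Tlr8. Of the 7 other IRF-related genes, Irf2bp2 and Prdm1 had groups that did not overlap, both higher in Prdm1-CKO mice, with log2 fold changes of 0.19 and 0.09. Over the 37 pathway genes tested this makes 2 higher, beside 4.56% of all genes, and 1 lower, beside 3.86% of all genes.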

How the data were processed

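RNA of Tfh cells sorted from the spleen (3 CTL mice, 3 Prdm1-CKO mice) was made into Smart-seq2 libraries, sequenced as read pairs of 25 bases. The authors deposited raw counts per gene, made on GRCm38 with featureCounts and without normalization, and the submitters' processing notes name STAR 2.4.2a, DESeq2 and GRCm38.p6. Strandedness, the treatment of multiply aligned reads and the counting of pairs are not given in the sources used here. Symbols, exon lengths and positions came from GENCODE M21, which is another release than the one the study names for its counts. The identifiers of Psmb8, Psmb9, Mx1, Mx2 and Dtx3l differ in version between them, so levels per length and their order are approximate, for these 5 above all. Total counts were 7147601 to 16973392 per mouse, and the floors of 3 counts cover counting error only.

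Genes were filtered with filterByExpr and tested with the quasi-likelihood test of edgeR 4.0.16 in R 4.3.3, with TMM factors and the Benjamini-Hochberg adjustment over 14555 genes. Log2 CPM used a prior count of 2. Simulated counts with known changes were used to test the fits. With 3 mice a group the smallest two-sided p of an exact permutation test is 0.1, and p values describe the spread between these mice. The alternatives were DESeq2 1.42.0, its size factors in edgeR, 2 other filters, the replicate number as a block, voom with sample weights (limma 3.58.1), each mouse left out, and, chosen after seeing the data, a correction for gene length with and without the block.

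The members and gene lists were chosen with earlier results of these data known. Members named with every value were those past an unadjusted p of 0.05 or with groups that did not overlap, the 3 highest and the median in level, and the one of widest range in each role of 3 or more. Rnf213, Isg15, Ifit1, Rsad2, Usp18, Oas3, Samd9l and Eif2ak2 were added after their values were seen, as were the pathway and neighbouring genes given with values. Motifs were searched as exact letters on both strands of RefSeq promoters. Of the genes of signal transduction, 1 is not reported here by itself.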

Additional observations from a re-analysis of the deposited data

How the results depend on the processing

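The adjusted p of edgeR called 0 members under every alternative run, and so did DESeq2 and voom. Leaving out each mouse in turn gave 0 to 5 members higher and 0 to 3 lower at an unadjusted p under 0.05, 0 to 3 pathway genes higher and 0 to 1 lower, 2 to 10 members with every Prdm1-CKO mouse above every CTL mouse, 1 to 6 with every one below, and a median log2 fold change of -0.03 to 0.13. Voom put 1 member lower (Rnf213, -0.45) and reversed Oas3 (0.08), Ifih1 (-0.06) and Usp18 (-0.02). Without the filter 1 pathway gene was higher (Ifngr1) and 1 lower (Tlr3, at most 23 counts). With the replicate block 1 pathway gene was higher (Ifngr1, 0.50) and no member changed its call. The length correction with the replicate block put 1 member (Oasl2, 0.53) and 1 pathway gene (Ifngr1) higher and turned Oas3 to 0.03. Same-numbered mice correlated by 0.158, 0.028 and 0.016, and differently numbered mice by -0.131, -0.111, -0.026, -0.008, -0.007 and 0.083. The highest value was that of the mice numbered 1. CTL replicate 3 correlated best with Prdm1-CKO replicate 2 (0.083). The numbers were not taken as pairs in the main test, and these values do not decide whether they were pairs. With mice left out in turn, signs turned for 24 of the 48 members. Among the 19 given with every mouse's value these were 8, namely Ifit1 (range -0.17 to 0.62), Rsad2 (-0.16 to 0.67), Ifih1 (-0.12 to 0.43; -0.00075 without Prdm1-CKO replicate 1), Usp18 (-0.14 to 0.59), Psmb8 (-0.08 to 0.25), Tap1 (-0.06 to 0.23), Oas3 (-0.49 to 0.24; 0.12 without Prdm1-CKO replicate 2) and Dtx3l (-0.21 to 0.26; -0.18 without Prdm1-CKO replicate 1). Of these 8, all but Dtx3l turned without CTL replicate 2, and Dtx3l turned without CTL replicate 3. The length correction moved Rnf213 from -0.39 to -0.17. The cause of these changes was not tested. A minimum of 10 counts in every mouse left out Oasl1 and Ifi44. Of the 48 members, 23 kept their sign in every setting run. With 3 mice a group the members' median interval of 0.56 on either side limits what could be seen.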
